A study of Mus musculus with 54 samples.

Results

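The genes described here are 10 that have been reported as targets of the microRNA miR-375: Yap1, Mtpn, Elavl4, Rasd1, Jak2, Pdk1, Igf1r, Cadm1, Aifm1 and Gphn. They were chosen by name, with earlier results of these data known. Each was read gene by gene from single-cell and bulk measurements of mouse small intestine. All 10 were among the 27998 genes of the single-cell matrices and among the 48059 named entries of the mRNA table. The study, whose 54 samples fall into 16 groups, asked what miR-375 does in the intestinal crypt. The single-cell samples came from mice of 12 months, strain C57BL6/2J, as dissociated small intestinal cells in 2 sets, each with 1 wild-type and 1 miR-375 knockout sample. The bulk samples came from C57BL/6J mice whose crypt cells were sorted for a low level of the Sox9-EGFP reporter, a gate that holds several crypt cell types. They comprised 4 mice on chow, 4 on a high fat diet, 4 conventionalized mice and 4 germ-free mice with mRNA. Small RNA was measured in the chow, conventionalized and germ-free mice too, so 12 mice had both assays. Germ-free animals live without a microbiota, and conventionalized animals were born so and later colonized. The labels did not say whether the 2 sets came from separate mice, so the p-values for the knockout measure the spread between these samples, which may be technical.

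A microRNA guides the Argonaute protein to messenger RNAs through short base pairing, most often in the 3' untranslated region, and the usual effect is less protein and a modest loss of the messenger. miR-375 was first described in pancreatic islets, where it restrains insulin secretion, and in the gut it is abundant in enteroendocrine cells, the hormone-secreting cells of the epithelium. The 10 genes encode proteins of different kinds. Yap1 is the transcriptional coactivator that the Hippo kinases restrain. Igf1r is a growth factor receptor, and Jak2 is a kinase that carries signals from cytokine receptors. Mtpn (myotrophin) was the target first linked to insulin secretion. Rasd1 is a small Ras-like GTPase induced by glucocorticoids, and Elavl4 (HuD) is an RNA-binding protein of neurons. Cadm1 is an adhesion molecule, and Gphn (gephyrin) anchors inhibitory receptors at synapses and takes part in molybdenum cofactor synthesis. Aifm1 is a mitochondrial flavoprotein that can act in cell death. Pdk1 needs care: the symbol denotes pyruvate dehydrogenase kinase 1, while the miR-375 target reported under the name PDK1 is the phosphoinositide-dependent kinase, whose symbol is Pdpk1. Values for Pdpk1 are given beside those for Pdk1.

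The microRNA gene Mir375 lies on mouse chromosome 1, minus strand, at chr1:74900658-74900721 of GRCm38, as GENCODE annotates it. Of its products, miR-375-5p has the following sequence in RefSeq (GRCm38.p6, chr1:74900696-74900717), shown because the small RNA table counts both arms and this arm was nearly absent from it. The capitals mark bases 2 to 8, the seed.
mmu-miR-375-5p: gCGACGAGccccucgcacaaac
The 5p arm lay between 0 and 3.46 RPMMM (reads scaled to the total of mapped microRNA reads) in the 30 small RNA libraries that had values. All values below for the microRNA are therefore for miR-375-3p.

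The 10 genes are protein-coding genes on 9 chromosomes (GENCODE, GRCm38, the build that the submitters' notes name as mm10). Yap1 (chr9:7931999-8004596, minus) and Cadm1 (chr9:47530173-47857637, plus) share chromosome 9. Mtpn lies at chr6:35508906-35539888 (minus), Elavl4 at chr4:110203722-110351909 (minus) and Rasd1 at chr11:59963181-59964944 (minus). Jak2 lies at chr19:29251828-29313080 (plus), Pdk1 at chr2:71873224-71903858 (plus) and Igf1r at chr7:67952827-68233668 (plus). Aifm1 is at chrX:48474944-48513563 (minus), and Gphn, the longest of the 10 with 458394 bases, is at chr12:78226379-78684772 (plus). Rasd1 is the shortest, at 1764 bases. Pdpk1 lies at chr17:24073680-24150924 (minus).

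In the single-cell data the unit was the UMI count, 1 count for each captured RNA molecule. After filtering, 1185 to 3156 cells remained in each sample. The enteroendocrine gate took cells with 4 or more of 9 markers detected (Chga, Chgb, Neurod1, Isl1, Pax6, Scg5, Fev, Scgn and Cpe), which gave 31 wild-type and 28 knockout cells in set 1, and 30 wild-type and 41 knockout cells in set 2. The gated cells held 380168 to 616867 UMIs in a sample, against 23565905 to 50425248 in the 1136 to 2449 other Epcam-positive cells. Median UMIs per cell were 7045 to 12008 in the gate and 15721 to 21820 outside it. Levels are given as CPM, a gene's UMIs scaled to the total of its gate in that sample. The markers summed to 5890 to 19799 CPM in the gate and 12.0 to 21.8 in the other epithelial cells. RNA of other cell types was present in the gate: 17 Paneth markers summed to 40989 CPM in the set 1 knockout sample and to no less than 2069 in any sample. Markers of neurons or glia, 5 or 6 of 9 of them detected, summed to 57.1 to 155 CPM in the gate and 1.15 to 1.48 outside it. The libraries shared at most 3 cell barcodes. Mir375 is not among the matrix genes, so the knockout could not be checked there.

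Rasd1 was the member with the clearest difference between the enteroendocrine gate and the other cells. It was present at 132 and 77.8 CPM in the gated cells of the wild-type samples (sets 1 and 2) and at 84.9 and 189 in those of the knockout samples. In the other epithelial cells it reached 1.70 and 3.27 CPM in the wild-type samples and 1.36 and 2.07 in the knockout samples. Every gated sum was thus far above every other sum, with 224 Rasd1 UMIs in the gate against 335 outside it from a much larger pool of RNA. The log2 difference was 5.22 (SE 0.22, adjusted p = 5.9e-22, edgeR's quasi-likelihood test over 12834 genes with the sample as a block). Calls are adjusted p-values under 0.05, and 36.3% of all genes tested were called in this comparison. A Rasd1 UMI was seen in 30.0 to 48.4% of the gated cells and in 2.27 to 4.96% of the other epithelial cells. In the immune cells of set 2 the shares were 0.821% of 975 wild-type and 0.393% of 509 knockout cells. After each cell was thinned to 2000 UMIs and gated on the thinned counts, which left 17 to 33 gated and 962 to 2100 other epithelial cells in a sample, the shares were 12.0 to 41.2% in the gate and 0.208 to 0.743% outside. The thinned share in the set 2 wild-type immune cells was 0.735% (6 of 816). That is near the share of the other epithelial cells of the same sample. Among those, goblet cells held 101 UMIs (10.6 CPM, exact Poisson interval 8.62 to 12.9) and cycling cells 9 (0.742 CPM, 0.339 to 1.41). Goblet cells were at 4.96 CPM in wild-type set 1, and at 3.09 and 5.12 in knockout sets 1 and 2.

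Elavl4 was rare but found almost entirely in the gate. It gave 2 UMIs in each wild-type sample, and 6 and 3 in the knockout samples of sets 1 and 2. In the other epithelial cells there were 0, 1, 0 and 1 UMIs in the same order. Together the gate held 13 UMIs of 1940688 and the other cells 2 of 144962426, a ratio of 486 with a 95% counting interval of 110 to 4432 (exact conditional binomial). The intervals given for UMI ratios cover counting error only. With so few UMIs outside the gate it passed the filter on low counts only through the gated cells, so its call (adjusted p = 4.2e-08, edgeR's quasi-likelihood test) adds nothing to these counts. The neuron or glia markers named above moved in the same direction, and their part in this result was not tested.

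The results for Yap1 and Aifm1 depended on the fit. Yap1 was at 25.6 and 16.2 CPM in the gated wild-type cells and at 25.2 and 10.5 in the gated knockout cells (sets 1 and 2). The other epithelial cells held 22.9, 17.6, 25.8 and 16.3 in the same order, so the ranges overlapped. With edgeR's TMM scaling Yap1 was called lower in the gate (log2 difference -0.63, SE 0.24, adjusted p = 0.038). That call was lost without any 1 of the 4 samples (adjusted p from 0.0697 to 0.139). Aifm1 was at 55.1, 53.5, 34.4 and 39.5 CPM in the gate and at 43.7, 62.2, 35.0 and 69.6 outside it (wild-type sets 1 and 2, then knockout sets 1 and 2). It was called lower in the gate with TMM scaling (log2 difference -0.72, SE 0.18, adjusted p = 0.0013), though the ranges overlapped. Without the sample block its adjusted p was 0.0512, and that of Yap1 was 0.244. With the gate set on thinned cells the differences were larger and called, at -2.42 for Yap1 (adjusted p = 2.4e-05), -1.37 for Aifm1 (adjusted p = 8.8e-06) and -1.31 for Pdk1 (adjusted p = 0.0043), all by edgeR.

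The choice of scaling changed several calls. TMM put the median of all genes at -0.08 and called 2041 genes higher and 2620 lower in the gate. With library totals alone, an alternative added after seeing the data, the median was 0.48, with 4760 genes higher and 946 lower. On that scale Yap1 (-0.08) and Aifm1 (-0.16) were not called, while Mtpn (0.60), Igf1r (0.89), Gphn (0.64) and Pdpk1 (0.56) were called higher, and Jak2 and Pdk1 changed sign without a call. Rasd1 was called higher under every setting in which it could be tested. The calls of Elavl4 add nothing to its counts, for the reason given above. With TMM, Mtpn stood at 0.05 (SE 0.13), Igf1r at 0.34 (SE 0.27), Gphn at 0.09 (SE 0.23), Jak2 at -0.50 (SE 0.25), Pdk1 at -0.24 (SE 0.22) and Cadm1 at 1.47 (SE 0.84). None of these 6 was called, so 4 of 10 members were, 2 in each direction, beside the 36.3% of all genes. The 4 include Elavl4, which passed the filter only through the gated cells. On the plain scale of CPM the gated and other sums did not overlap for Mtpn (92.6 to 126 against 59.2 to 87.7) and Igf1r (13.8 to 24.3 against 9.08 to 11.4). The share of all genes without such overlap was not computed. The plot of levels in both gates shows these values for each sample.

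**Figure D1:**
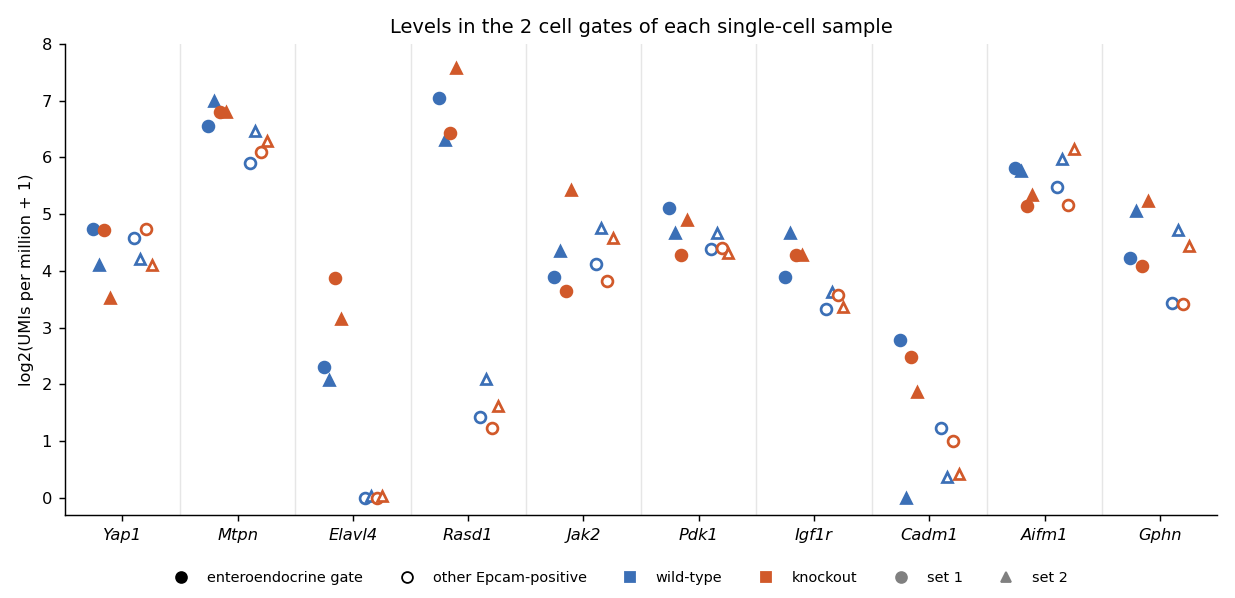
Level of each gene in the enteroendocrine gate (filled) and in all other Epcam-positive cells (open) of the 4 single-cell samples, on the y axis as log2(CPM + 1). Colour gives the genotype and shape the set; filled Rasd1 points lie at 77.8 to 189 CPM, all above the open ones at 1.36 to 3.27.

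A finer division of the cells into 9 marker gates gave each gene's order of levels, as a description and without a test. The mean ± SD over 4 samples is used, and the gates of 1 sample share a library. Of 80 pairs of neighbours in these orders, the sample ranges of 71 overlapped and those of 9 did not. Yap1 was highest in the stem gate (37.0 ± 14.0 CPM, n = 4) and the cycling gate (31.4 ± 8.72), whose ranges overlapped. It fell through tuft (24.998), goblet (23.5), other epithelial (22.7), enteroendocrine (19.4) and enterocyte cells (16.7) to Paneth (4.69) and immune cells (0.390). The enterocyte, Paneth and immune ranges of Yap1 did not overlap. Igf1r was also highest in the stem gate (27.5 ± 4.21), above the cycling gate (19.7 ± 1.35) with no overlap. The enteroendocrine gate came next (18.7 ± 4.32), and enterocytes (1.61 ± 0.534) and immune cells (1.08 ± 1.30) were lowest. Jak2 had a different order, with enterocytes at the top (45.7 ± 6.67), immune cells next (33.2 ± 17.8) and stem and cycling cells near the bottom (both 13.3). The receptor and the coactivator thus had their highest means in the stem gate, and the cytokine kinase in enterocytes.

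Rasd1 in the remaining gates was highest in goblet cells (5.94 ± 3.23 CPM, n = 4), and it was lowest in tuft cells, with 1 UMI in 159 cells. The goblet value lay below the lowest enteroendocrine sum of 77.8. Elavl4 had 2 UMIs in Paneth-gated cells and 0 in the other 7 gates. Mtpn ranged from 69.3 to 110 over all gates but Paneth, where it was 16.1 ± 3.09. Pdk1 was highest in cycling cells (30.0 ± 1.00) and lower in enterocytes (15.7 ± 1.74), whose ranges did not overlap. Pdpk1 was instead highest in tuft cells (61.5 ± 16.9). Aifm1 was highest in cycling cells (70.1 ± 17.4), and Gphn in enteroendocrine (25.8 ± 10.4) and cycling cells (25.03 ± 11.7), with overlapping neighbours. Cadm1 rested on 6 UMIs in the enteroendocrine gate, 9 in the stem gate and 4 in immune cells, too few to order. In Paneth cells 7 of the 10 genes (Yap1, Mtpn, Jak2, Pdk1, Igf1r, Aifm1 and Gphn) were at 3.07 to 16.1 CPM, and only Yap1 and Igf1r were lower elsewhere among these 7, in immune cells and, for Igf1r, also in enterocytes. The Paneth gate took cells with at least 5% of their UMIs from Paneth markers.

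**Figure D2:**
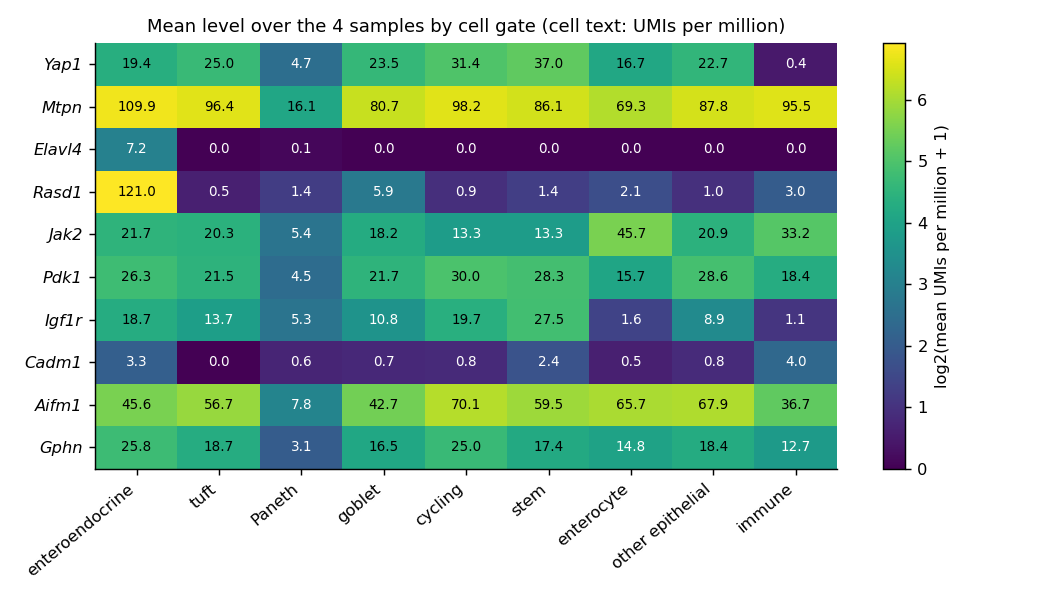
Mean level over the 4 samples of each gene (rows) in 9 marker gates (columns); colour is log2(mean CPM + 1) and the printed number is the mean in CPM. Rasd1 and Elavl4 stand out in the enteroendocrine column, Yap1 and Igf1r peak in the stem column, and Jak2 in the enterocyte column.

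In the enteroendocrine gate no member was called between knockout and wild-type samples. Neither was any other gene: 0% of 6098 genes were called by edgeR's quasi-likelihood test, with 122 at an unadjusted p under 0.05, and DESeq2 called 0 genes with 42 at that level. The samples of a set deviated together, and with the set as a block 62 genes were called, 40 higher and 22 lower in the knockout, none of them a member. Of the members, 6 had enough UMIs to be tested. Mtpn gave a log2 difference of 0.06 (SE 0.32), Gphn 0.06 (SE 0.53), Yap1 -0.13 (SE 0.69), Pdk1 -0.28 (SE 0.50), Rasd1 0.34 (SE 0.43) and Aifm1 -0.53 (SE 0.39), each with an adjusted p of 0.9997. Pdpk1 gave -0.33 (SE 0.41). Elavl4, Jak2, Igf1r and Cadm1 did not pass the filter on low counts. The errors were 0.32 to 0.69 on the log2 scale with 2 samples a genotype.

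Within each set the counts can be compared directly. Rasd1 had 67 wild-type and 37 knockout UMIs in set 1, a knockout to wild-type ratio of 0.644 (95% counting interval 0.419 to 0.975). In set 2 it had 48 and 72 UMIs, a ratio of 2.43 (1.67 to 3.58), so the sets went in opposite directions, each beyond counting error. Aifm1 was lower in the knockout in both sets, with ratios of 0.624 (0.310 to 1.21) and 0.738 (0.372 to 1.40), both within counting error of no difference. Elavl4 was higher in both, 3.50 (0.625 to 35.4) and 2.43 (0.279 to 29.1), on 2 wild-type UMIs in each set. Yap1 had ratios of 0.986 (0.400 to 2.39) and 0.649 (0.149 to 2.25). Of the 10 members and Pdpk1, only Rasd1 had an interval that excluded 1 in either set. How many of all genes had such an interval was not computed. The gated knockout cells of set 1 also carried the Paneth RNA noted above, and its part in these values was not tested.

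The other epithelial cells gave far more counts. No member was called there either: 0% of 13090 genes were called by edgeR's quasi-likelihood test, with 90 at an unadjusted p under 0.05, while DESeq2 called 6, none of them a member. Of the members 9 were tested, all but Elavl4, and their log2 differences ran from -0.46 (Rasd1, SE 0.41) to 0.09 (Yap1, SE 0.41), with a median of -0.13 beside 0.0031 over all genes. Each adjusted p was 0.999995. The counting intervals within a set were narrow, and they excluded 1 for 5 of 10 genes in set 1 and 8 of 11 in set 2, with Pdpk1 counted. The share of all genes with such intervals was not computed, so these counts are no result about the members. Jak2 was lower in the knockout in both sets, with 388 and 312 UMIs in set 1 (ratio 0.803, 0.689 to 0.934) and 1307 and 1082 in set 2 (ratio 0.881, 0.812 to 0.956). Rasd1 was also below 1 in both, at 0.799 (0.486 to 1.30) and 0.632 (0.487 to 0.817), and Gphn at 0.977 (0.810 to 1.18) and 0.817 (0.751 to 0.889). Each set has 1 sample of a genotype, so these ratios compare 2 libraries.

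The remaining genes changed side between the sets. Mtpn was at 1.13 (1.06 to 1.22) in set 1 and 0.879 (0.841 to 0.919) in set 2. Aifm1 went the other way, from 0.802 (0.731 to 0.880) to 1.12 (1.07 to 1.18). Pdpk1 was at 1.17 (1.04 to 1.32) and then 0.872 (0.812 to 0.938). For Pdk1 the set 1 ratio was 1.01 (0.884 to 1.15) and the set 2 ratio 0.773 (0.709 to 0.843). Igf1r stood at 1.20 (0.996 to 1.44) and 0.820 (0.723 to 0.930), and Yap1 at 1.13 (1.001 to 1.27) and 0.930 (0.843 to 1.03). Cadm1, on 15 to 32 UMIs in a sample, was at 0.749 (0.422 to 1.31) and 1.14 (0.526 to 2.47). The sets differed beyond counting error for Mtpn, Aifm1, Pdpk1, Pdk1 and Igf1r, whose intervals did not overlap. For Mtpn, Aifm1 and Pdpk1 the intervals lay on opposite sides of 1. The plot of knockout to wild-type ratios shows both gates.

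**Figure D3:**
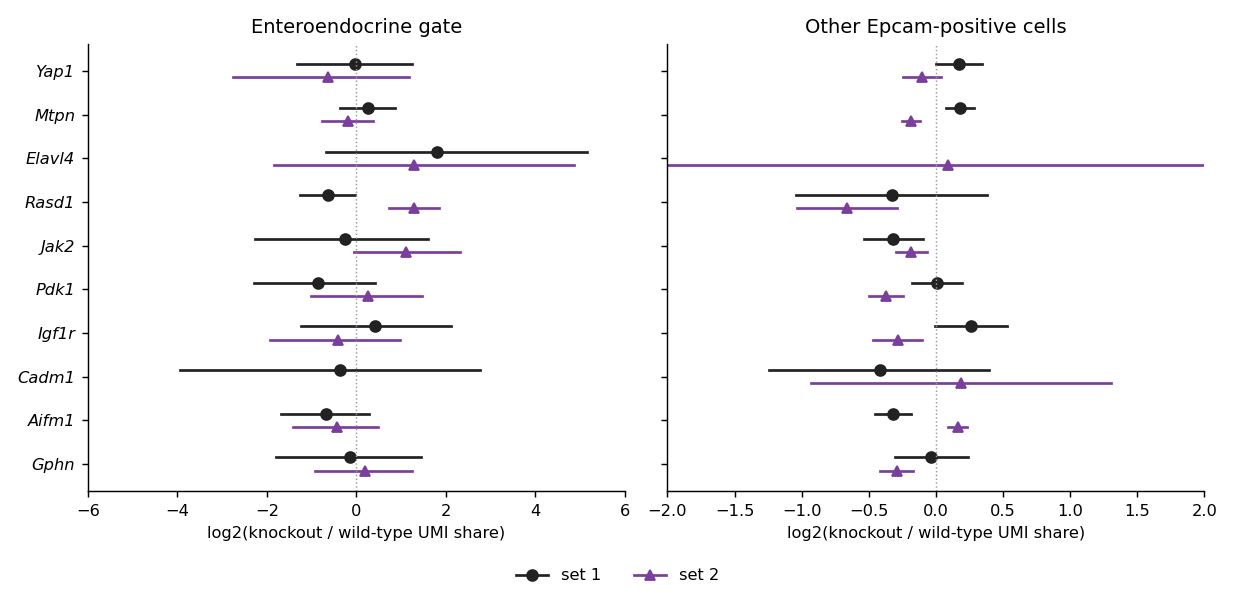
Knockout to wild-type ratio of UMI share on a log2 axis, for set 1 (circles) and set 2 (triangles), in the enteroendocrine gate (left) and in other Epcam-positive cells (right); bars are 95% counting intervals and the dotted line marks no difference. Rasd1 lies on opposite sides of the line in the left panel and Jak2 on the same side in the right panel; the Elavl4 bar at right runs past the axis, and ratios with a library at 0 are not drawn.

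A test of whether the knockout difference itself differed between the gate and the other cells called 0.304% of 12834 genes and no member (edgeR's quasi-likelihood test of the interaction). Rasd1 came nearest, with a log2 difference between the effects of 0.92 (SE 0.35, unadjusted p = 0.0093, adjusted p = 0.653). Jak2 gave 0.79 (SE 0.52) and Aifm1 -0.56 (SE 0.37), each with an adjusted p of 1.0. The value for Rasd1 was 0.042 without wild-type set 2 and 1.60 without wild-type set 1 (adjusted p = 0.064). Without single samples Jak2 ranged from 0.15 to 1.07 and Aifm1 from -1.01 to -0.05. Elavl4 (1.41, SE 3.45), Cadm1 (0.77, SE 1.77), Yap1 (-0.27, SE 0.53), Gphn (0.18, SE 0.49), Pdk1 (-0.14, SE 0.48), Pdpk1 (-0.42, SE 0.39), Igf1r (-0.10, SE 0.57) and Mtpn (-0.01, SE 0.27) also had adjusted p-values of 1.0.

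In the bulk data miR-375-3p itself varied widely. In the sorted Sox9-EGFP Low cells it reached 55680, 35358, 144628 and 78794 RPMMM in the 4 chow mice. The conventionalized mice had 42327, 31198, 86006 and 51228, and the germ-free mice 119812, 106618, 198437 and 123624. All 4 germ-free values lay above all 4 conventionalized ones. The log2 difference was 1.44 (SE 0.30, adjusted p = 0.0057 by limma over 252 microRNAs, of which 42.5% were called), and p was 0.0286 in an exact permutation test (two-sided), the floor for 4 against 4. In Sox9-EGFP Negative cells of the chow mice it was 566 ± 103 (SD, n = 4), and in whole crypts 16384 ± 4061 (SD, n = 4).

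No member was called between germ-free and conventionalized mice, beside 2.24% of 20214 genes, 394 higher and 59 lower (limma on log2(normalized count + 1), 4 mice a group). The 16 mRNA libraries totalled 10688900 to 19124400 normalized counts. The fold changes below are on that log2 scale, which understates changes of low genes. The median of all genes was 0.11, and that of the 10 members was also 0.11. Rescaling by the median of ratios brought the first to 0.01. In bulk tissue fewer cells of a type and less RNA per cell cannot be told apart. Aifm1 came nearest to a call. It was at 2013, 1750, 1402 and 1939 normalized counts in the conventionalized mice and at 889, 1285, 433 and 1263 in the germ-free mice. Every germ-free value was below every conventionalized one, with a log2 difference of -0.98 (SE 0.33, adjusted p = 0.154 by limma; exact permutation p = 0.0286). With the spread taken from all 4 mRNA groups its adjusted p was 0.0408. Aifm1 was the only member whose groups did not overlap in this comparison. The share of all genes without overlap was not computed, while 4072 of 20214 genes had an unadjusted p under 0.05 by limma.

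Rasd1, the GTPase, was at 719, 376, 1540 and 2188 normalized counts in the conventionalized mice and at 3167, 1438, 3728 and 1879 in the germ-free mice. The groups overlapped, and the log2 difference of 1.28 (SE 0.49) had an adjusted p of 0.196 by limma. Pdk1 was at 838, 628, 678 and 582 against 401, 436, 226 and 661, a difference of -0.75 (SE 0.32, adjusted p = 0.221 by limma), where only germ-free mouse GF315 reached the conventionalized range. Igf1r was at 189, 348, 637 and 82.3 against 360, 434, 665 and 571, a difference of 1.02 (SE 0.51, adjusted p = 0.274 by limma). Here the spread among conventionalized mice covered most of the germ-free range. Yap1 (-0.48, SE 0.30), Mtpn (-0.36, SE 0.28), Elavl4 (1.24, SE 0.86), Cadm1 (0.63, SE 0.66), Jak2 (0.21, SE 0.30), Gphn (0.01, SE 0.26) and Pdpk1 (0.66, SE 0.36) had adjusted p-values from 0.312 to 0.984 by limma.

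Cell type markers moved with these groups. The 9 enteroendocrine markers, all detected in every library, summed to 243889 to 512530 normalized counts in the germ-free mice and 40465 to 135053 in the conventionalized mice, with no overlap. The 8 cycling markers, also all detected, summed to 2014 to 8833 in germ-free and 12329 to 16034 in conventionalized mice, again with no overlap. Neuron or glia markers (1591 to 3761 against 430 to 874, at least 7 of 9 detected) and stromal or endothelial markers (286 to 716 against 40.2 to 269, at least 6 of 8 detected) were also higher in germ-free mice without overlap. Their part in the differences of Rasd1, Aifm1, Elavl4 and the other members was not tested in this comparison.

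Between high fat diet and chow, Rasd1 was the member that changed. It was at 2068, 1792, 3246 and 3220 normalized counts in the chow mice and at 382, 902, 293 and 905 in the high fat mice. The lowest chow value was well above the highest high fat value. The log2 difference was -2.18 (SE 0.38, adjusted p = 0.039 by limma, exact permutation p = 0.0286), where 0.822% of 16421 genes were called, 34 higher and 101 lower. The call rests on all the libraries together: it was lost without any 1 of the 4 high fat mice and without chow mice BC180, BC241 or BC243, with adjusted p-values from 0.063 to 0.110 and differences from -2.42 to -1.88. Over the whole table the count of genes called ranged from 0 to 2590 as single mice were left out, the last without chow mouse BC183. Enteroendocrine markers summed to 106898 to 493636 in chow and 20738 to 97730 in high fat mice, without overlap. Tuft markers (16479 to 35517 against 1962 to 9947) and T lymphocyte markers (42.6 to 267 against 28.5 to 41.3) were also lower in high fat mice without overlap, and the part of these lists in the Rasd1 difference was not tested in this comparison.

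Aifm1 went the other way from Rasd1 on this diet. It was at 1442, 1617, 910 and 1120 normalized counts in chow and at 2113, 1783, 1962 and 1671 in high fat mice, with no overlap. Its log2 difference was 0.59 (SE 0.18, adjusted p = 0.097 by limma, exact permutation p = 0.0286), and the adjusted p was 0.0326 without chow mouse BC183. Rasd1 and Aifm1 were the 2 members whose groups did not overlap. How many of all genes did so was not computed, while 4383 of 16421 genes had an unadjusted p under 0.05 by limma. Pdk1 was at 585, 549, 301 and 446 against 964, 867, 723 and 541, a difference of 0.73 (SE 0.24, adjusted p = 0.106 by limma). Yap1 gave 0.43 (SE 0.21), Jak2 -0.31 (SE 0.16), Pdpk1 -0.48 (SE 0.18), Elavl4 -0.94 (SE 0.67), Cadm1 -0.44 (SE 0.32), Igf1r -0.22 (SE 0.34), Mtpn 0.08 (SE 0.15) and Gphn 0.07 (SE 0.14), with adjusted p-values from 0.125 to 0.799 by limma. The median of the 10 members was -0.07, beside 0.05 over all genes.

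**Figure D4:**
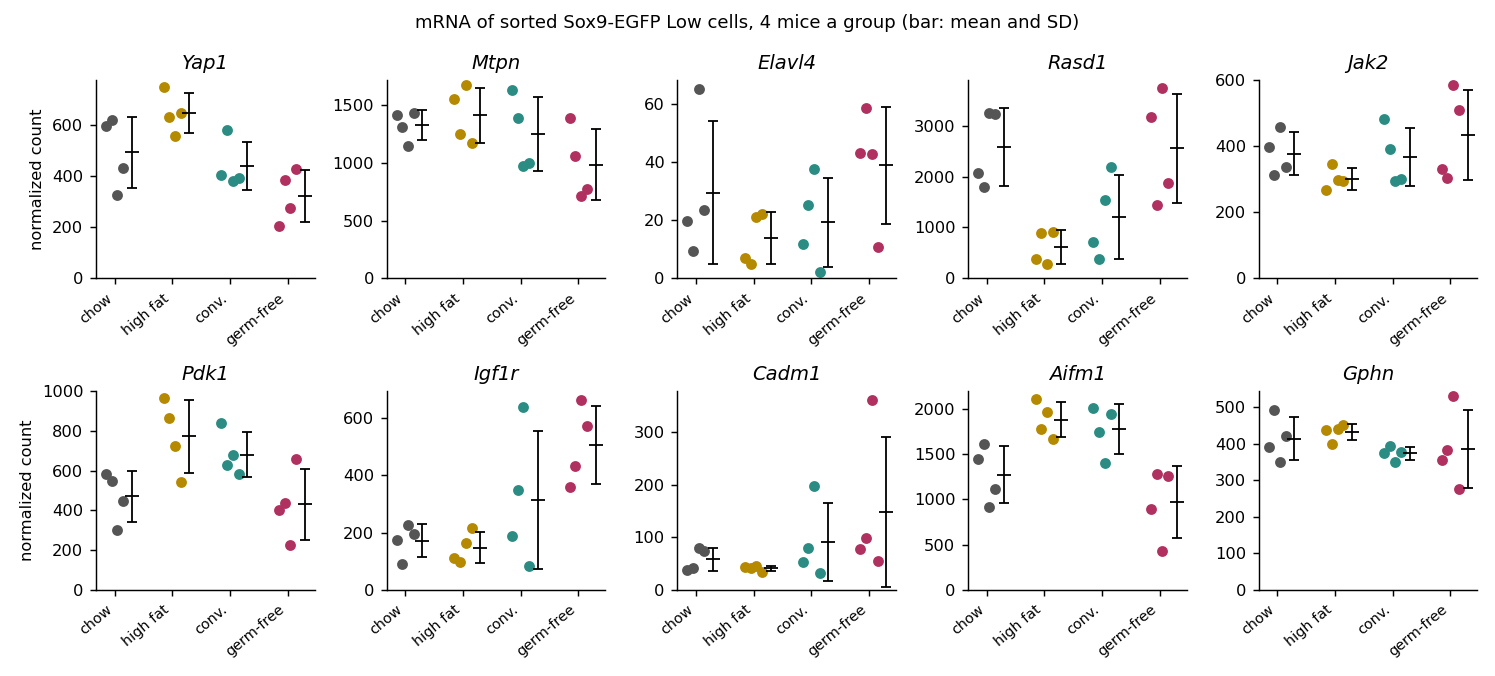
Normalized counts (y axis, from 0) of each gene in Sox9-EGFP Low cells of 4 chow, 4 high fat, 4 conventionalized (conv.) and 4 germ-free mice; points are mice and bars the mean and SD. Rasd1 in high fat mice (293 to 905) lies below chow (1792 to 3246), and Aifm1 is lower in germ-free (433 to 1285) than in conventionalized mice (1402 to 2013).

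Across the 12 mice with both assays, 5 of the 10 members followed miR-375-3p, 3 downward and 2 upward, beside 28.6% of 19320 genes that were called (2618 upward, 2908 downward; limma regression of log2 mRNA on log2 miR-375-3p). Aifm1 fell most firmly, with a slope of -0.60 log2 units for each doubling of miR-375-3p (SE 0.12, adjusted p = 0.0036 by limma). It ran from 1750 normalized counts in the mouse with the least miR-375-3p to 433 in the mouse with the most. Pearson's r was -0.84 (permutation adjusted p = 0.0050, where 25.2% of genes were called) and Spearman's rho -0.87 (permutation adjusted p = 0.0093, 18.8% called). Without the 2 mice farthest from the median of miR-375-3p, conventionalized mouse CD270 and germ-free mouse GF305, r was still -0.84.

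Yap1 and Pdk1 also fell. Yap1 had a slope of -0.40 (SE 0.12, adjusted p = 0.023 by limma), r = -0.75 (permutation adjusted p = 0.028) and rho = -0.73 (permutation adjusted p = 0.047). Without those 2 mice r was -0.64 and the slope kept its size (-0.40) but not the call (adjusted p = 0.079 by limma), and leaving out chow mouse BC183 or germ-free mouse GF305 alone also ended it (adjusted p = 0.0703 and 0.0753). Pdk1 had a slope of -0.45 (SE 0.13, adjusted p = 0.022 by limma) and r = -0.72 (permutation adjusted p = 0.033), but its rho of -0.57 was not called (permutation adjusted p = 0.147). Its call was lost without germ-free mouse GF305 (slope -0.32, adjusted p = 0.140 by limma), and r was -0.60 without the 2 farthest mice. Pdpk1, the kinase reported as the target, had r = 0.12 (permutation adjusted p = 0.777).

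Rasd1 and Igf1r rose with the microRNA. Rasd1 had a slope of 0.80 (SE 0.21, adjusted p = 0.015 by limma), r = 0.71 (permutation adjusted p = 0.035) and rho = 0.66 (permutation adjusted p = 0.085). Without the 2 farthest mice r was 0.49 and the call was lost (adjusted p = 0.156 by limma), so the relation rests in part on those mice. Without germ-free mouse GF305 alone the slope was 0.81 with an adjusted p of 0.0604 by limma. Igf1r had a slope of 0.75 (SE 0.25, adjusted p = 0.036 by limma), while r = 0.63 and rho = 0.67 were not called (permutation adjusted p = 0.085 and 0.079). Leaving out any 1 of 8 mice ended its call (adjusted p from 0.0511 to 0.143). Mtpn (r = -0.64), Elavl4 (r = 0.58), Cadm1 (r = 0.62), Jak2 (r = 0.37) and Gphn (r = -0.13) were not called, and their rho values were -0.59, 0.59, 0.50, 0.36 and -0.31. Gphn had r = -0.67 without the 2 farthest mice. Over the whole table the number of genes called fell to 1634 without germ-free mouse GF305, whose library was the smallest of the 16 by its total of normalized counts.

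The groups and the enteroendocrine content of the samples moved with the microRNA. With group as a covariate 165 genes were called and no member, although 10 of 10 members kept the sign of their slope: Aifm1 stood at -0.54 (adjusted p = 0.180), Yap1 at -0.43 (0.218), Pdk1 at -0.42 (0.243), Rasd1 at 0.84 (0.161) and Igf1r at 0.65 (0.269), all by limma. Each group has 4 mice, too few for a correlation of its own. The mean log2 level of the 9 enteroendocrine markers had r = 0.87 with miR-375-3p (permutation p = 0.00036, not adjusted, 12 mice) and rho = 0.83 (permutation p = 0.0013). It had r = 0.83 with Rasd1, -0.82 with Pdk1, -0.81 with Aifm1 and -0.69 with Yap1, given as a description. With that level as a covariate the slope of Rasd1 was -0.07 and that of Pdk1 -0.02, Aifm1 stood at -0.41 (adjusted p = 0.214 by limma) and Yap1 at -0.33 (adjusted p = 0.334 by limma). Mtpn, at -0.64 (adjusted p = 0.0435 by limma), and Igf1r, at 1.75 (adjusted p = 0.029 by limma), were then called. In that fit 2876 of all 19320 genes were called. This fit separates 2 measures that are themselves closely correlated over 12 mice. The panels of mRNA against the microRNA show each mouse.

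**Figure D5:**
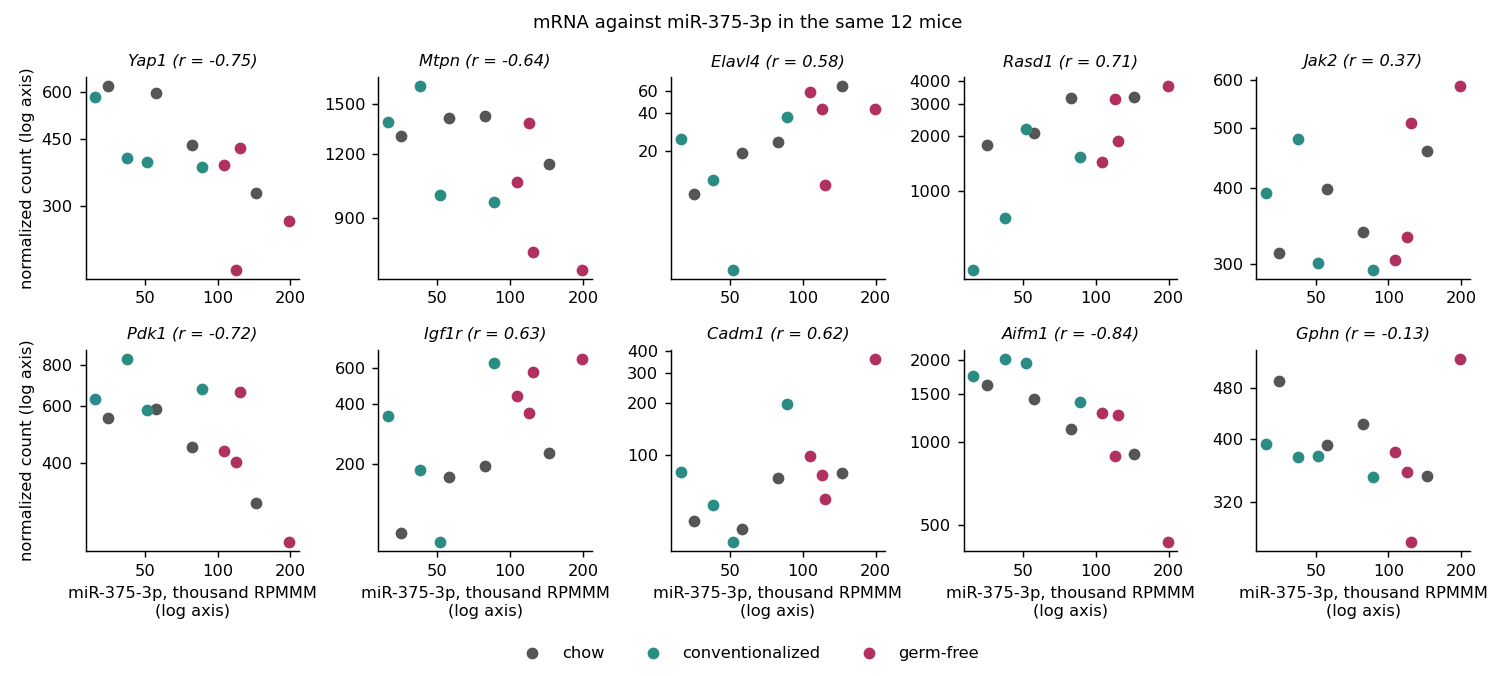
Normalized count of each gene (y, log axis) against miR-375-3p in RPMMM divided by 1000 (x, log axis) in the same 12 mice; colour gives the group and r is Pearson's r on log2 values. Aifm1 (r = -0.84) and Yap1 (r = -0.75) slope downward, and Rasd1 (r = 0.71) slopes upward with all 4 germ-free mice to the right of all 4 conventionalized mice.

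The pathways that hold the members were read from lists. The Hippo pathway list (19 genes) had no call in either knockout comparison, and 4 of 17 tested genes were called between the enteroendocrine gate and the other cells, beside 36.3% of all genes. Without TMM scaling 9 of the 17 were called, 8 higher and 1 lower, beside 4760 higher and 946 lower of all 12834 genes. The 4 with TMM scaling were Tead1 (0.79), a DNA-binding partner of Yap1, Taok1 (0.46) and Amotl1 (3.59), all higher, and Wwc1 (-1.20), which was lower. Against miR-375-3p 3 of 19 were called, beside 28.6% of all genes: Tead4 (1.33) and Amotl2 (0.46) upward and Vgll4 (-0.57), which competes with Yap1 for TEAD factors, downward. Of 22 YAP-TEAD response genes, 5 of 15 tested were called in the gate, beside 36.3% of all genes (Gadd45a 1.36, Nt5e 2.51 and Nuak2 0.57 higher; Myof -3.48 and Areg -2.42 lower). Their median was 0.10, beside -0.08 over all genes, and without TMM scaling 8 of the 15 were called, 6 higher and 2 lower. Nt5e, an ecto-nucleotidase, was also called higher in germ-free than in conventionalized mice (2.93, adjusted p = 0.013 by limma) and rose with miR-375-3p (slope 1.74), while Ccn2 fell with it (slope -1.88). Of the response genes 1 of 21 tested was called in the former comparison, beside 2.24% of all genes. Against miR-375-3p 3 of 20 were, beside 28.6%. For the interaction of genotype and gate 0.304% of all genes were called, and of that list only Ly6a, a surface protein of regenerating epithelium (5.54, SE 1.19, adjusted p = 0.0017, edgeR's quasi-likelihood test). Ly6a did not pass the filter on low counts in the gate alone, so its value rests on few gated UMIs. In high fat against chow mice 16 of 18 tested response genes lay below 0 (median -0.78, beside 0.05 over all genes), and none was called.

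In the insulin-IGF and PI3K list (15 genes), 4 were called in the enteroendocrine gate, all higher, beside 36.3% of all genes. They were Irs1 (6.49), an adaptor of insulin and IGF receptors, Igf2r (0.77), Pik3r1 (0.50) and Rictor (0.76). In the other cells alone 14 of the 15 passed the filter on low counts. If Irs1 was the gene left out, it passed here only through the gated cells, as Elavl4 did. Without TMM scaling 12 of the 15 were called higher, beside 4760 of all 12834 genes. Irs1 also rose with miR-375-3p (slope 1.05, adjusted p = 0.0014 by limma). Against the microRNA 2 of the 15 were called, beside 28.6% of all genes. Of the 12 JAK-STAT genes, all tested, 4 were called in the gate, 2 higher and 2 lower, beside 36.3% of all genes. Jak1 (0.61) and Socs3 (0.84) were higher, and Stat6 (-0.53) was among the lower. Without TMM scaling the value for Stat6 was 0.02 and uncalled. Among the 4 ELAV genes, the neuronal Elavl3 rose with the microRNA (slope 1.79) and the ubiquitous Elavl1 fell (slope -0.34), both called by limma, and Elavl2 was not. That made 2 of 4 tested, beside 28.6% of all genes. Of 6 further genes reported as miR-375 targets in islets, 5 were tested between the gate and the other cells. Of these 3 were called, beside 36.3% of all genes. Smarca2 (0.93) was higher in the gate, and Id3 (-0.71) and C1qbp (-0.95) lower, with Id3 not called without TMM scaling. Against miR-375-3p 3 of 5 tested were called, beside 28.6% of all genes: Id3 rose (slope 0.64) while C1qbp (slope -1.08) and Eef1e1 (slope -0.52) fell. None of these lists had a call between the genotypes in either gate.

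The genes most like each member over the 16 mRNA libraries were found by Pearson's r on log2 values among 18682 genes, as a description. Libraries of a group share their condition, and r this high follows in part from picking the highest of many. Rasd1 was closest to Arc (r = 0.96) and Gem (0.96), and Aifm1 to Sh2d4a (0.98) and Aldh1b1 (0.98). Yap1 was closest to Utp6 (0.95) and Larp1 (0.93), and Pdk1 to Cluh (0.95) and Kcnk10 (0.94). Igf1r was closest to Gm38292 (0.98) and Cmah (0.98), and Cadm1 to Pla2g4e (0.92) and Zfp11 (0.92). For Mtpn they were Mitd1 (0.92) and Rab1a (0.89), for Jak2 Esyt2 (0.91) and Galnt4 (0.89), for Elavl4 Tmem182 (0.90) and Catsperg1 (0.87), and for Gphn Phactr2 (0.85) and Zfp866 (0.84). Pdpk1 was closest to Tab3 (0.90) and Golga4 (0.88).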

How the data were processed

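The single-cell matrices held UMI counts per gene and cell, which the authors made with Cell Ranger per the submitters' processing notes. The mRNA table held a deposited normalized count per gene (a linear signal that was not whole), with no method of normalization in the sources used here, although the submitters' notes name STAR, Salmon and DESeq2 with the mm10 genome and no versions. The small RNA table held values in RPMMM, an RPM unit over mapped microRNA reads, as deposited by the authors. Of the 48440 mRNA entries, 381 had no gene name, took 0.0338 to 0.0804% of a library and were left out, and 63 symbols occurred more than once. Of the small RNA columns, 4 matched no sample and were not used. The small RNA column of mouse BC241 names a high fat diet where the labels give chow; the labels were followed.

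Cells with at least 500 genes, 1000 UMIs and under 25% mitochondrial UMIs were kept. Scrublet (scanpy 1.11.5) marked few doublets at its own threshold (2 to 27 cells), so the highest-scoring cells were removed at 0.8% per 1000 barcodes (12 to 207 cells). UMIs were summed by sample and gate and tested with edgeR 4.0.16 (quasi-likelihood, TMM scaling, filter on low counts), with DESeq2 1.42.0 as an alternative. The mRNA and small RNA values were tested with limma 3.58.1 on log2(value + 1) for entries with means of at least 10 and 50. Correlations had 100000 permutations and used scipy 1.17.1. P-values were adjusted by Benjamini-Hochberg over all genes tested. The scripts were tested on simulated data. The labels name the sets of the single-cell samples, and samples of a set deviated together (correlation 0.458 in the enteroendocrine gate and 0.631 in the other cells, 2 pairs), so the fit with the set as a block is given beside the result it changed.

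The members were named in each comparison, with Pdpk1 beside Pdk1. From each list the genes called were named, and for likeness the 2 genes with the highest r. The rule's further genes of lists without calls are left out for length. Some list results are not reported here. The members and the lists were chosen with earlier results of these data known. Matches to the miR-375-3p seed in 3' untranslated regions were not analysed here.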

Additional observations from a re-analysis of the deposited data

Results flagged for a closer look

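In each of 51 sets of 4 samples the highest or lowest value was checked for a gap to the nearest other sample that exceeded 0.829 of the whole range, Dixon's limit for 4 samples. Chance alone flags about 1 in 20 such sets, and 3 were flagged. Yap1 in the conventionalized mice was at 581 normalized counts in mouse CD270, while the other 3 mice lay between 381 and 402. Cadm1 in the germ-free mice was at 361 in mouse GF305, with the other 3 between 55.7 and 98.7. The library of GF305 had the smallest total of normalized counts among the mRNA libraries. In Sox9-EGFP Negative cells of the chow mice miR-375-3p was at 413 RPMMM in mouse BC180, with the other 3 between 594 and 631.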

How the results depend on the processing

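The higher level of Rasd1 in the enteroendocrine gate, and that of miR-375-3p in germ-free mice, kept direction and call under every alternative in which they could be tested. Elavl4 is left out here, since it passed the filter only through the gated cells. For the members, 375 values that left out no sample kept direction and side of the threshold, 24 reversed, 20 lost the call and 9 gained one; the causes were not tested. Knockout against wild type in the gate called 62 genes with the set as a replicate block, 39 with no filter on low counts and 1 with the gate set on thinned cells; without doublet removal Yap1 was at 0.043, Rasd1 at -0.055 and Gphn at -0.086. In the other cells DESeq2 called 6 genes and no filter gave 1; after thinning Cadm1 was at 0.056 and Aifm1 at -0.0023, and Aifm1 was at -0.023 with the replicate block. For the gate against other cells, 2959 genes were called without the replicate block and 2937 in the 2 wild-type samples; after thinning Mtpn was at -0.072 and Gphn at -0.20, without TMM scaling Jak2 was at 0.061 and Pdk1 at 0.32, and with 3 or more markers Pdpk1 was at -0.017. The interaction called 8 genes with 5 or more markers and 78 without doublet removal. In the latter Yap1 was at 0.0008, Mtpn at 0.21, Pdk1 at 0.020 and Igf1r at 0.21; with 3 or more markers Mtpn was at 0.043 and Igf1r at 0.10, and with 5 or more Mtpn was at 0.025.

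In germ-free against conventionalized mice the spread of all 4 groups gave 1672 genes, and median-of-ratios scaling put Gphn at -0.084. In high fat against chow mice no filter gave 317 genes and the spread of all 4 groups 33. Mice with the same number did not deviate together (correlations from -0.128 to 0.400 and from 0.0441 to 0.219, 1 of 4 best with its own number in each), and a replicate block gave 494 genes in the first comparison and 2.7e+02 in the second (66 higher and 205 lower). Against miR-375-3p, 165 genes were called with group and 2876 with the enteroendocrine level as a covariate. Rasd1 was then at -0.073 with that level, and Pdpk1 at -0.093 with group, -0.50 with that level, -0.0069 without the 2 farthest mice and -0.015 without mouse BC241.

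Leaving out 1 sample at a time gave these ranges. Knockout against wild type in the gate called 0 to 45 genes (most without wild-type set 1), with Gphn from -0.44 to 0.42, Mtpn from -0.11 to 0.22, Pdk1 from -0.62 to 0.084, Rasd1 from -0.12 to 0.91 and Yap1 from -1.10 to 0.48. In the other cells it called 0 to 2 genes, with Aifm1 from -0.43 to 0.36, Cadm1 from -1.41 to 1.42, Gphn from -0.66 to 0.45, Igf1r from -0.17 to 0.24, Jak2 from -0.51 to 0.086, Mtpn from -0.043 to 0.14, Pdk1 from -0.27 to 0.0025 and Yap1 from -0.40 to 0.53. The interaction called 20 to 60 genes, with Gphn from -0.035 to 0.29, Igf1r from -0.35 to 0.30, Mtpn from -0.22 to 0.14 and Pdk1 from -0.47 to 0.15. For the gate against the other cells Pdpk1 ranged from -0.16 to 0.12. Germ-free against conventionalized called 1 (without germ-free mouse GF244) to 684 genes, with Gphn from -0.16 to 0.16. High fat against chow called 0 to 2590 genes, with Gphn from -0.0043 to 0.16 and Mtpn from -0.0051 to 0.17. Against miR-375-3p 1634 to 8725 genes were called, with Gphn from -0.16 to 0.018 and Pdpk1 from -0.015 to 0.30. An arm left with 1 sample is assumed to vary like the other. In the gate the small number of cells limits what can be seen.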
